A study of Mus musculus with 6 samples.

Results

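Macrophages clear dying cells and modified lipoproteins through scavenger and dead cell uptake receptors, and 10 genes of this kind were followed by name in RNA sequencing of mouse bone marrow and of macrophages grown from it. They were the TAM receptor tyrosine kinases Mertk and Axl, their ligand Gas6, the phosphatidylserine receptors Stab1 and Timd4, the class A scavenger receptors Msr1 and Marco, the class B receptor Cd36, the lectin-like receptor for oxidised lipoprotein Olr1, and the haemoglobin scavenger Cd163. All 10 were found among 55536 named genes, and all 10 were among the 14719 genes kept for analysis, which had a CPM (counts scaled to a common library size) of at least 1 in at least 1 library.

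The groups were macrophages grown with GM-CSF and given interleukin-6 (IL6) for 3 h, GM-CSF macrophages without IL6 (GM-BMDM), macrophages grown with M-CSF without IL6 (M-BMDM), M-BMDM given IL6 for 3 h or for 24 h, and uncultured bone marrow cells (BM). All came from C57BL/6 mice aged 8 weeks, and the cultures ran for 7 days. The labels do not state the dose of IL6, the number of mice behind a library, or whether the 24 h cells were cultured and harvested beside the untreated ones. Each group had 1 library, so no p-value was computed, and a difference that belongs to 1 culture or 1 library cannot be told apart from one that belongs to its treatment.

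The library totals ran from 18567482 to 24196082 counts. The 5 macrophage markers (Adgre1, Csf1r, Cd68, Fcgr1 and Itgam) were all present in every library, and their summed level was 4017 CPM in GM-BMDM with IL6, 4066 CPM in GM-BMDM, 5688 to 6826 CPM in the M-BMDM libraries and 1071 CPM in BM. The summed markers of neutrophils reached at most 15.5 CPM in the cultures, against 25476 CPM in BM, and those of erythroid cells at most 6.23 CPM, against 47229 CPM. Ly6g, the defining neutrophil marker, was at 0 in all the cultures. The 6 dendritic cell markers summed to 41.0 and 42.7 CPM in the GM-CSF libraries, at most 1.83 CPM in the M-CSF libraries and 70.9 CPM in BM. In such bulk samples, fewer cells of a type and less RNA per cell cannot be told apart. Socs3, a feedback gene of IL6 signalling named here after its values were seen, had 141 CPM in GM-BMDM with IL6 for 3 h, against 142 CPM in GM-BMDM, and 102, 99.3 and 7.60 CPM in M-BMDM without IL6, after 3 h and after 24 h.

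Dying cells expose phosphatidylserine on their surface. Some receptors, such as Timd4 and Stab1, bind it directly. Mertk and Axl bind it through a bridging protein, Gas6, which binds both the dying cell and the kinase. Scavenger receptors of the other classes bind oxidised or acetylated lipoprotein, bacteria and other charged ligands, and Cd163 takes up haemoglobin bound to haptoglobin. Which of these receptors a macrophage carries is known to differ between tissues.

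The promoters of 4 members are shown because the differences below turn on these genes, with Mertk and Gas6 as a receptor and its ligand that differed in opposite directions between the growth factors, Stab1 as the member with the largest difference between them, and Olr1 as the member with the largest difference after 24 h of IL6. Each is the 250 bases before the gene's start in RefSeq on GRCm38.p6, printed 5′ to 3′ on the gene's own strand. Capitals mark letters that match a GC box (GGGCGG), an AP-1 site (TGANTCA) or a nuclear receptor hexamer (AGGTCA) on either strand.
Mertk (chr2:128698665-128698914, plus strand): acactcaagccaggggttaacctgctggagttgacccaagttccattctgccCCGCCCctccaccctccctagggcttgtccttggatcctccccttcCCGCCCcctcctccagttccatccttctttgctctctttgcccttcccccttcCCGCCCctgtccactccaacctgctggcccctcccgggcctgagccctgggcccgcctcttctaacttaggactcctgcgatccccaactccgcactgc
Gas6 (chr8:13494536-13494785, minus strand): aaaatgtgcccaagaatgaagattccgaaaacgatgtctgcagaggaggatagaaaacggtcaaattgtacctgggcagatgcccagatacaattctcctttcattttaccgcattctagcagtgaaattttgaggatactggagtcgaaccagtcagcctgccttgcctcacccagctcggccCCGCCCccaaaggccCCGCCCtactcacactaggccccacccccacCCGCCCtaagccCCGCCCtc
Stab1 (chr14:31168642-31168891, minus strand): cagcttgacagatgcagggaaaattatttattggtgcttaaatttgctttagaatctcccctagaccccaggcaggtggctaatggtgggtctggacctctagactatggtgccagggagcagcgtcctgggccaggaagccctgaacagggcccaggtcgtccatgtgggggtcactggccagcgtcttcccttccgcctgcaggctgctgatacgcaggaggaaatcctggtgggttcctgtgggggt
Olr1 (chr6:129507166-129507415, minus strand): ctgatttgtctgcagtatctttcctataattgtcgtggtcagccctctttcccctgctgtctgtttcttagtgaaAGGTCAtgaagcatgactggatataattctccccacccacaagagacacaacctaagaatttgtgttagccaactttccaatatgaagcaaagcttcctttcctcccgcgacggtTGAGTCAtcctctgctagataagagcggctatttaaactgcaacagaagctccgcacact

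Of the 10 genes, 9 had a promoter in the RefSeq table. The Mertk promoter held 3 GC boxes and that of Gas6 held 4, all of them on the opposite strand. Stab1 held none of the motifs searched. Olr1 held an AP-1 site at 60 to 54 bases before the start and a nuclear receptor hexamer at 175 to 170 bases before it. A GC box was present in 4 of the 9 promoters and in 32.7% of all 32851 promoters of the table, and the hexamer was present in 3 of 9 and in 14.0%. The AP-1 site was in 1 of 9 and in 6.75% of all, a PU.1 site (GAGGAAG, in Axl and Marco) in 2 of 9 and in 10.6%, and a STAT site (TTCNNNGAA) in 0 of 9 and in 7.02%. The motifs did not overlap one another in the members, were chosen with results of these data known, and are descriptions of letters only.

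**Figure D1:**
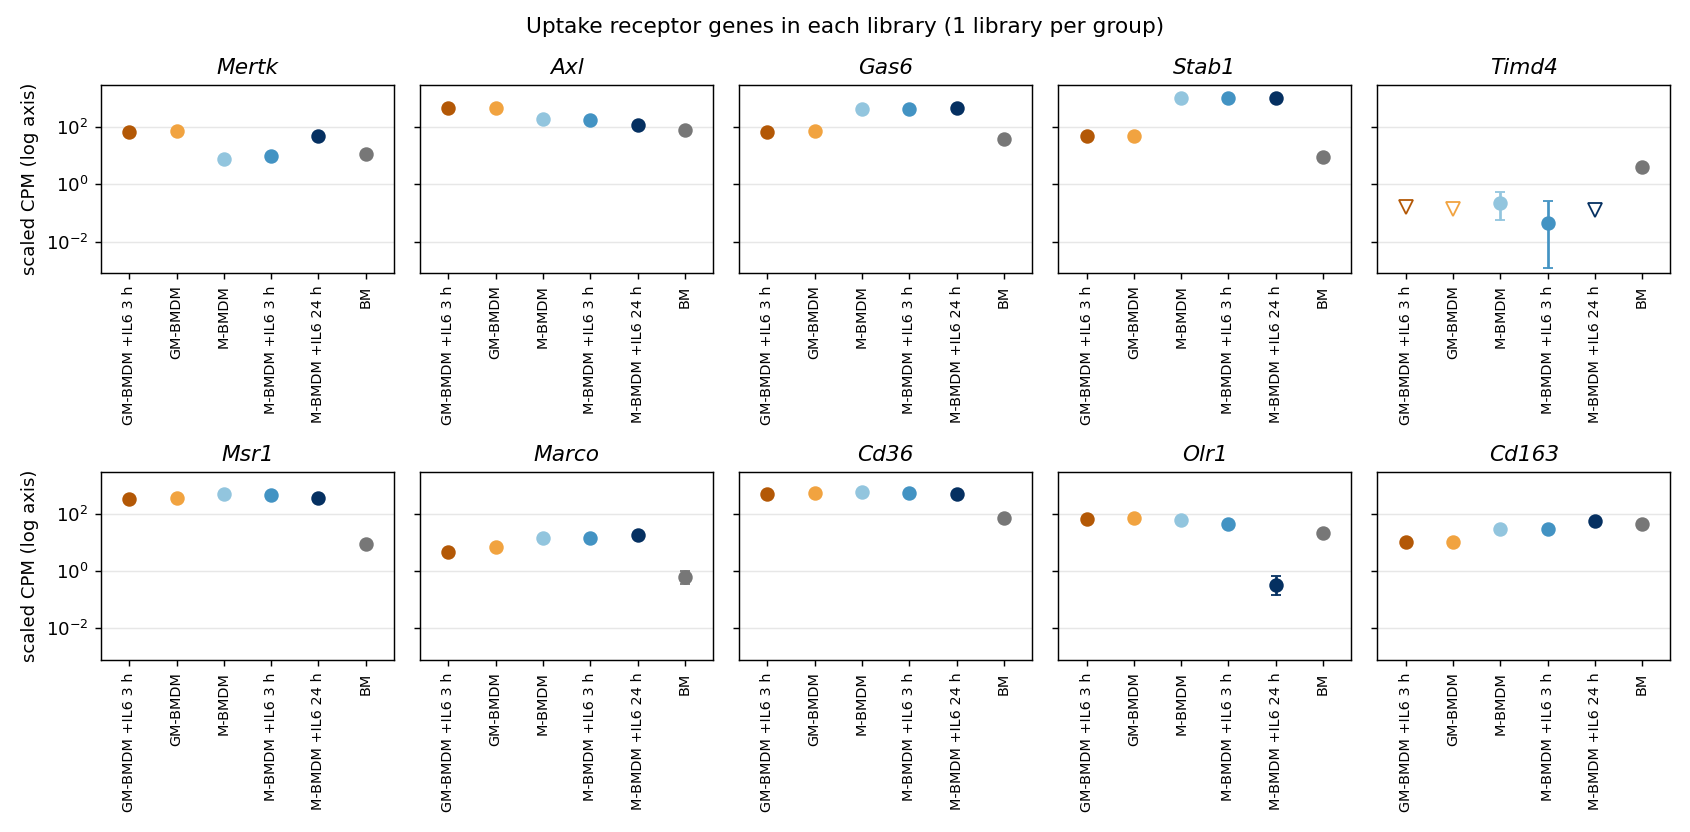
Level of each of the 10 genes in each of the 6 libraries, in scaled CPM on a log axis, with the exact 95% counting interval where it is wider than the point; open triangles mark the limit of 3 counts for libraries with no count. Olr1 stands at 0.332 CPM after 24 h of IL6, below every other library, and Timd4 has its highest point, 3.91 CPM, in BM.

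Among the TAM receptors and their ligand, Mertk had 69.5 CPM in GM-BMDM with IL6, 71.2 CPM in GM-BMDM, then 7.68, 9.79 and 48.2 CPM in M-BMDM without IL6, after 3 h and after 24 h, and 11.4 CPM in BM. It was thus high in both GM-CSF libraries and in the 24 h M-CSF library, and low in the other 3. Axl, the other TAM kinase, had 478 and 469 CPM in GM-BMDM with and without IL6, then 187, 181 and 116 CPM along the M-BMDM series, and 79.0 CPM in BM. Its order put both GM-CSF libraries first and BM last. Gas6 ran the other way between the growth factors, with 69.5 and 73.0 CPM in GM-BMDM with and without IL6, then 426, 444 and 473 CPM along the M-BMDM series, and 37.5 CPM in BM.

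Of the phosphatidylserine receptors, Stab1, which also takes up modified lipoprotein and matrix proteins, had 48.2 and 50.0 CPM in GM-BMDM with and without IL6, then 1036, 1027 and 1084 CPM along the M-BMDM series, and 8.93 CPM in BM. The 3 M-CSF libraries stood close together and far above the GM-CSF libraries and BM. Timd4, known from resident macrophages, had 0 counts in both GM-CSF libraries, then 4, 1 and 0 counts along the M-BMDM series, and 95 counts (3.91 CPM) in BM. A library with no count allows up to 0.138 CPM in GM-BMDM, 0.164 CPM in GM-BMDM with IL6 and 0.125 CPM in M-BMDM after 24 h. Timd4 passed the filter on low values through BM alone and stayed under the 5 CPM that the counts below require.

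Among the class A scavenger receptors, which bind acetylated lipoprotein and bacteria, Msr1 had 339 and 372 CPM in GM-BMDM with and without IL6, then 498, 451 and 356 CPM along the M-BMDM series, and 9.13 CPM in BM. All 5 cultures were high and BM was low. Marco was low throughout, with 4.75 and 7.17 CPM in GM-BMDM with and without IL6, then 14.7, 14.6 and 18.7 CPM along the M-BMDM series, and 0.617 CPM (15 counts) in BM. The class B receptor Cd36, which binds oxidised lipoprotein and fatty acids, had 499 and 531 CPM in GM-BMDM with and without IL6, then 579, 541 and 495 CPM along the M-BMDM series, and 74.9 CPM in BM. Its 5 culture values overlapped between the growth factors.

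Olr1 had 67.1 and 69.4 CPM in GM-BMDM with and without IL6, then 63.3, 45.2 and 0.332 CPM along the M-BMDM series, and 22.2 CPM in BM. The 24 h value rests on 8 counts, against 1179 counts in M-BMDM and 997 counts after 3 h. Cd163 had 10.4 and 10.2 CPM in GM-BMDM with and without IL6, then 29.5, 28.6 and 57.0 CPM along the M-BMDM series, and 43.0 CPM in BM. Marrow thus stood between the 24 h library and the other M-CSF libraries, and the GM-CSF libraries were lowest.

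Compared per length, as TPM (counts per base of a gene's exons, scaled to the same sum in every library), Cd36 was the leading member in GM-BMDM (357 TPM), followed by Axl (225 TPM), Msr1 (142 TPM), Gas6 (69.3 TPM), Olr1 (47.0 TPM) and Mertk (39.7 TPM). In M-BMDM, Gas6 (514 TPM) and Cd36 (496 TPM) led, followed by Stab1 (309 TPM), Msr1 (242 TPM) and Axl (114 TPM), and Mertk (5.44 TPM) had rank 9. In BM, Cd36 (52.0 TPM), Axl (39.1 TPM) and Gas6 (36.7 TPM) led. The TPM values of the 10 genes summed to 905 in GM-BMDM, 1776 in M-BMDM and 180 in BM. The ranks depend on the gene length used. With the longest transcript, Cd36 (412 TPM) ranked before Gas6 (405 TPM) in M-BMDM, followed by Msr1 (331 TPM) and Stab1 (313 TPM). The length of Msr1 was 6344 bases as the union of exons and 1424 bases in the deposited table. With the deposited lengths, a setting added after the data were seen, Msr1 reached 711 TPM in M-BMDM and ranked 1 in all the cultures, while Gas6 had 340.1 TPM and rank 3 in M-BMDM.

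Positions are given on GRCm38. Mertk spans 128698956 to 128802894 of chromosome 2 and Olr1 spans 129485244 to 129507165 of chromosome 6, where Cd163 spans 124304656 to 124330527. Axl spans 25757273 to 25788705 of chromosome 7, and Cd36 spans 17781690 to 17888801 of chromosome 5. On chromosome 8, Gas6 spans 13465374 to 13494490 and Msr1 spans 39581685 to 39642673. Marco spans 120474538 to 120505024 of chromosome 1, Stab1 spans 31139013 to 31168641 of chromosome 14, and Timd4 spans 46810800 to 46844332 of chromosome 11. Exons of Gas6 overlap those of Tmem255b on the opposite strand, and exons of Stab1 overlap those of Nt5dc2. The use of strand in counting is not given in the sources used here. Tmem255b was at 0 counts in all 6 libraries, while Nt5dc2 had 37.6 and 36.6 CPM in GM-BMDM with and without IL6, 79.4, 89.8 and 156 CPM along the M-BMDM series and 35.4 CPM in BM, and without strand the reads of overlapping exons cannot be told apart.

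The first question is how these genes differed between the cultures without IL6 and uncultured marrow. To count as higher or lower, a gene needed scaled counts that differed at least 2-fold, an exact 95% counting interval of the ratio that left out 1, and at least 5 CPM in the higher library. Intervals cover counting error only. In M-BMDM over BM, 7 of the 9 members at that level were higher (Axl, Gas6, Stab1, Msr1, Marco, Cd36 and Olr1), against 20.1% of 11245 genes, and 0 were lower, against 23.0%. In GM-BMDM over BM, 7 of 9 were higher (Mertk, Axl, Stab1, Msr1, Marco, Cd36 and Olr1), against 19.8% of 11367 genes, and Cd163 was lower, against 22.3% of genes. The median log2 ratio was 2.95 over the 9 members and 0.02 over all genes in M-BMDM, and 2.57 and -0.04 in GM-BMDM.

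Both cultures share the BM library, so their values are given side by side and no likeness between them is drawn. Stab1 had a log2 ratio of 6.86 (6.67 to 7.06) in M-BMDM, which is 116-fold and was exceeded by 49 genes, and 2.49 (2.28 to 2.70) in GM-BMDM. For Msr1 the log2 ratios were 5.77 in M-BMDM and 5.35 in GM-BMDM, for Cd36 2.95 and 2.82, and for Olr1 1.51 and 1.65. Marco had 4.58 (3.83 to 5.43) and 3.54 (2.77 to 4.41), with wide intervals from its 15 counts in BM. Gas6 had 3.51 in M-BMDM and 0.96 (0.84 to 1.08) in GM-BMDM, where the 1.95-fold difference fell just short of the limit. With upper-quartile scaling its ratio was 1.03 and passed.

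Mertk had a log2 ratio of -0.56 (-0.87 to -0.27) in M-BMDM and 2.65 (2.46 to 2.84) in GM-BMDM, while Axl had 1.24 and 2.57. Cd163 had -0.54 (-0.69 to -0.39) in M-BMDM and -2.08 (-2.30 to -1.87) in GM-BMDM. Timd4 had -4.19 (-6.09 to -2.78) in M-BMDM and, in GM-BMDM, was lower by at least 28.3-fold, computed against 3 counts in that library, with 3.91 CPM in BM in both cases. Since Timd4 passed the filter through BM alone, lower was the only direction open to it, and nothing is drawn from these values. The 5 markers of marrow tissue macrophages went both ways. Vcam1 had at most 2.68 CPM in the cultures, against 184 CPM in BM, Spic at most 2.13 CPM, against 10.6 CPM, and Slc40a1 11.4 to 95.7 CPM, against 187 CPM. Adgre1 had 257 to 1114 CPM in the cultures, against 64.1 CPM in BM, and Siglec1 60.2 to 123 CPM, against 25.3 CPM. Together they summed to 353 and 368 CPM in the GM-CSF libraries and 1034 to 1330 CPM in the M-CSF libraries, against 471 CPM in BM. Their part in the result was not tested. Stromal and endothelial markers summed to 21.0 to 42.1 CPM in the cultures, against 574 CPM in BM. Among them Kdr went the other way, with 14.0 to 28.0 CPM in the cultures, against 4.98 CPM in BM. The neutrophil and erythroid markers differed as given above. The part of these other cells in the result was not tested.

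**Figure D2:**
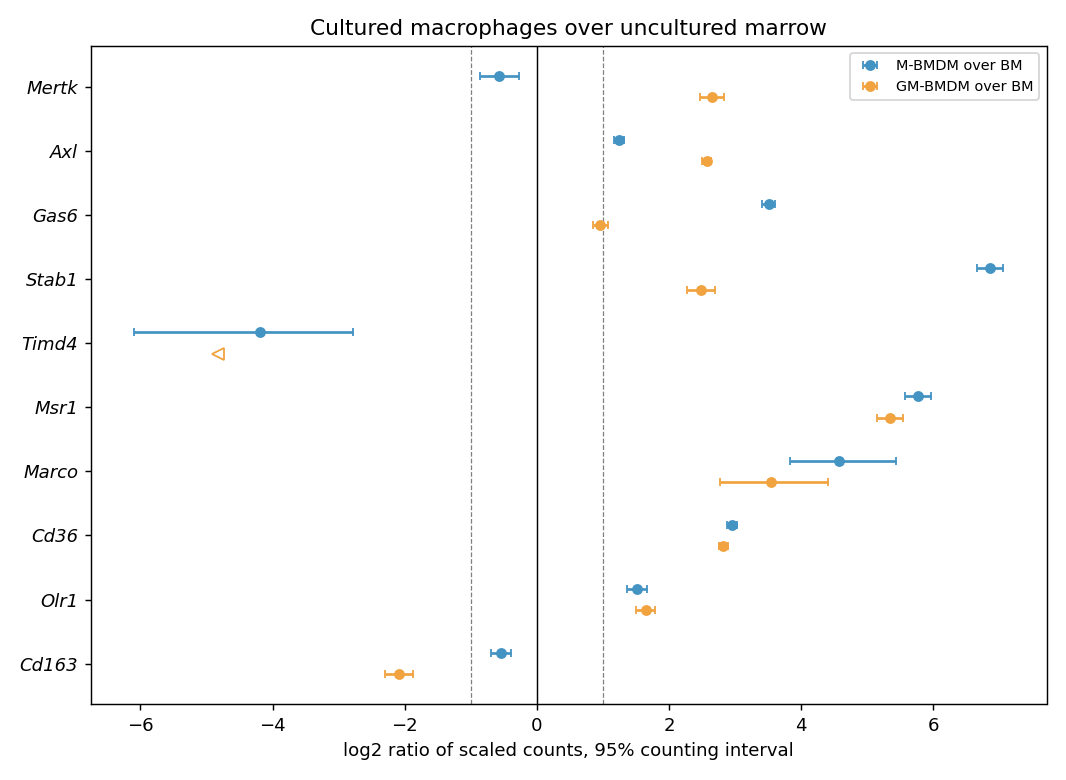
log2 ratio of scaled counts of M-BMDM over BM and of GM-BMDM over BM for each of the 10 genes, with the exact 95% counting interval; dashed lines mark a 2-fold difference and the open triangle is a bound computed against 3 counts. Stab1 (6.86) and Msr1 (5.77) lie furthest to the right in M-BMDM, and Mertk lies on opposite sides of 0 in the 2 cultures.

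The next question is how these genes differed between the GM-CSF and the M-CSF libraries. In GM-BMDM over M-BMDM, 2 of 9 members were higher (Mertk and Axl), against 10.8% of 10495 genes, and 4 were lower (Gas6, Stab1, Marco and Cd163), against 8.64%. The receptors Mertk and Axl and their ligand Gas6 thus differed in opposite directions. Mertk had 71.2 CPM in GM-BMDM, against 7.68 CPM in M-BMDM, or 9.28-fold more with a log2 ratio of 3.21 (2.97 to 3.47), and Axl had a log2 ratio of 1.33 (1.27 to 1.38). Gas6 had 73.0 CPM in GM-BMDM, against 426 CPM in M-BMDM, for a log2 ratio of -2.55 (-2.62 to -2.47).

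Stab1 had a log2 ratio of -4.37 (-4.46 to -4.28), or 20.7-fold lower in GM-BMDM, and 34 of the 10495 genes were lower still. Cd163 had -1.54 (-1.77 to -1.31). Marco, with -1.04 (-1.33 to -0.75), stood just past the limit at 2.05-fold, and with upper-quartile scaling its ratio was -0.94 and no longer counted. Msr1 (-0.42), Cd36 (-0.13) and Olr1 (0.13) stayed under 1.5-fold. The median log2 ratio was -0.42 over the 9 members and -0.02 over all genes.

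The pair of libraries that both had IL6 for 3 h gave 2 higher and 4 lower among the 9 members, the same 6 genes in the same directions, against 10.6% and 8.06% of 10449 genes. Its log2 ratios were 2.83 for Mertk, 1.40 for Axl, -2.68 for Gas6, -4.41 for Stab1, -1.62 for Marco and -1.46 for Cd163. This pair comes from other libraries of the same 2 macrophage types, though nothing in the labels says that they came from separate cultures. The summed dendritic cell markers were higher in the GM-CSF libraries in both pairs (41.0 and 42.7 CPM, against at most 1.83 CPM). In GM-BMDM 4 of 6 markers had 1 CPM or more, against 0 of 6 in M-BMDM, with Ccr7 (20.2 CPM) and Clec9a (15.7 CPM) the largest. Xcr1 was lower in GM-BMDM (0.184 CPM) than in M-BMDM (0.805 CPM), and Flt3 had 0.322 CPM in both. The part of these markers in the result was not tested.

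**Figure D3:**
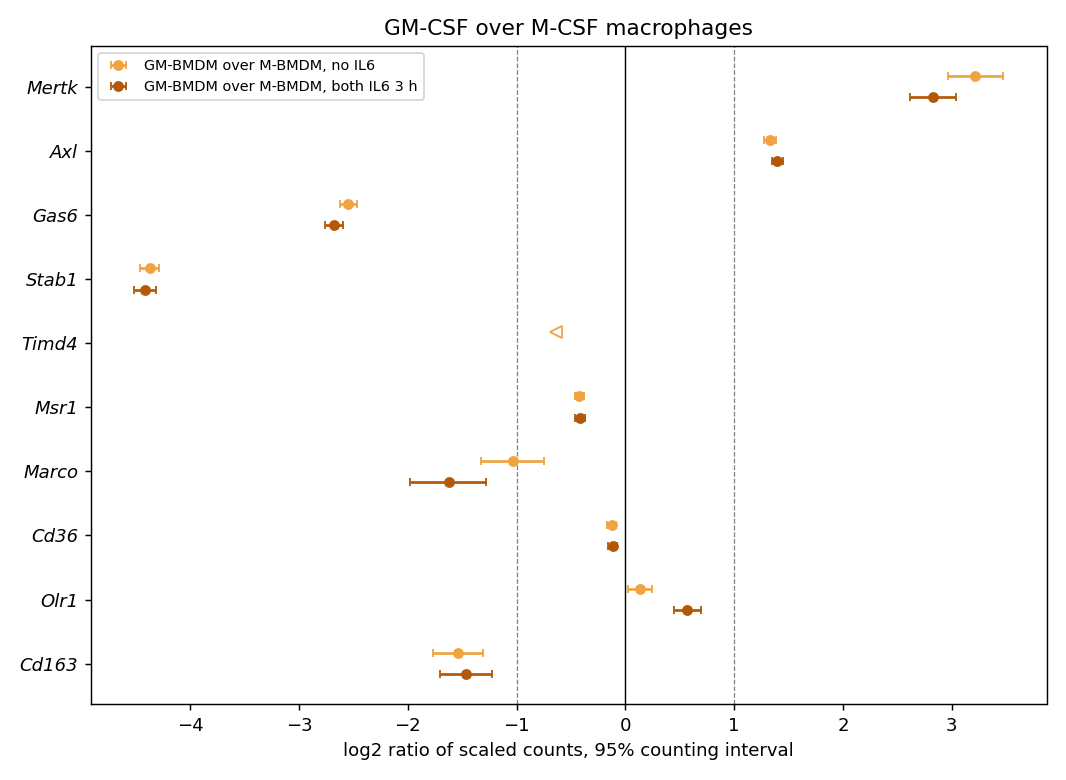
log2 ratio of scaled counts of GM-BMDM over M-BMDM for each of the 10 genes, once for the libraries without IL6 and once for those with IL6 for 3 h, with the exact 95% counting interval; dashed lines mark a 2-fold difference and the open triangle is a bound computed against 3 counts. Mertk and Axl lie to the right of the dashed line and Gas6, Stab1, Marco and Cd163 to the left in both pairs.

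The last question is how these genes differed between the libraries given IL6 and those without it. After 3 h, 0 of 9 members were counted in M-BMDM with IL6 over M-BMDM, against 0.362% of 9937 genes, and 0 of 9 in GM-BMDM with IL6 over GM-BMDM, against 0.166% of 10255 genes. Members with small differences were Olr1 in M-BMDM, with a log2 ratio of -0.49 (-0.61 to -0.36), Mertk in M-BMDM, with 0.35 (0.04 to 0.67), and Marco in GM-BMDM, with -0.59 (-0.99 to -0.21). The other members at 5 CPM stayed within 0.15 of 0 on this scale in both macrophage types.

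The difference between the 3 h log2 ratios, GM-BMDM minus M-BMDM, was 0.44 (0.27 to 0.60) for Olr1, -0.59 (-1.03 to -0.14) for Marco, -0.39 (-0.71 to -0.06) for Mertk and -0.13 (-0.24 to -0.02) for Gas6. These 4 intervals left out 0 and those of Axl, Stab1, Msr1, Cd36 and Cd163 held it. They cover counting error only, so a spread between cultures of this size was not measured. Of the 9 members, 0 had 3 h ratios of opposite sign in the 2 types with both intervals away from 0.

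After 24 h of IL6, which was measured in M-CSF cultures alone, 1 of 9 members was higher (Mertk), against 11.5% of 10313 genes, and 1 was lower (Olr1), against 8.93%. These shares are near those of all genes. Olr1 had a log2 ratio of -7.57 (-8.79 to -6.59), or 191-fold, and 2 of the 10313 genes were lower still. Mertk had 2.65 (2.40 to 2.91), or 6.28-fold, with 216 genes higher still, and stood at 48.2 CPM after 24 h, against 7.68 CPM in M-BMDM. Cd163 had 0.95 (0.81 to 1.10), a 1.93-fold difference just short of the limit that passed with total counts as the scale (1.09). Axl had -0.69 (-0.76 to -0.62) and Msr1 -0.49 (-0.53 to -0.44), while Marco (0.34), Cd36 (-0.23), Gas6 (0.15) and Stab1 (0.07) differed less. The median log2 ratio was 0.07 over the 9 members and 0.02 over all genes.

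Set against the 3 h library in place of the untreated one, the 24 h library again had 1 of 9 higher (Mertk, with a log2 ratio of 2.30), against 11.7% of 10274 genes, and 1 of 9 lower (Olr1, with -7.09), against 8.59%. Cd163 had 1.00 (0.86 to 1.14), again just short of 2-fold. Both comparisons use the same 24 h library, so they are not 2 separate measurements of it. The summed markers of megakaryocytes and stromal cells were lower in the 24 h library than in M-BMDM (30.2 and 21.0 CPM, against 38.9 and 42.1 CPM). Pf4 made up most of the megakaryocyte sum (29.9 CPM, against 38.4 CPM). Kdr made up most of the stromal sum (14.0 CPM, against 28.0 CPM), in which Cxcl12 alone was higher (0.623 CPM, against 0.376 CPM). Erythroid markers differed little, with 5.07 CPM after 24 h, against 6.23 CPM in M-BMDM. The sums of T and NK cells (0.208 CPM, against 0.268 CPM), eosinophils and mast cells (0.0830 CPM, against 0.161 CPM) and the B lineage (0.747 CPM, against 0.483 CPM) were near 0. No direction is read from these near-0 sums. The marrow tissue macrophage markers went both ways. Slc40a1 (95.7 CPM, against 11.4 CPM) and Adgre1 (1114 CPM, against 896 CPM) were higher, while Vcam1 (0.664 CPM, against 2.68 CPM), Spic and Siglec1 were lower. Their sum was 1330 CPM after 24 h, against 1034 CPM in M-BMDM. Most of it was Adgre1, which is also one of the macrophage markers. The macrophage markers summed to 5688 CPM after 24 h, against 6444 CPM in M-BMDM, with Adgre1 and Itgam higher and Csf1r, Fcgr1 and Cd68 lower. Their part in the result was not tested.

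**Figure D4:**
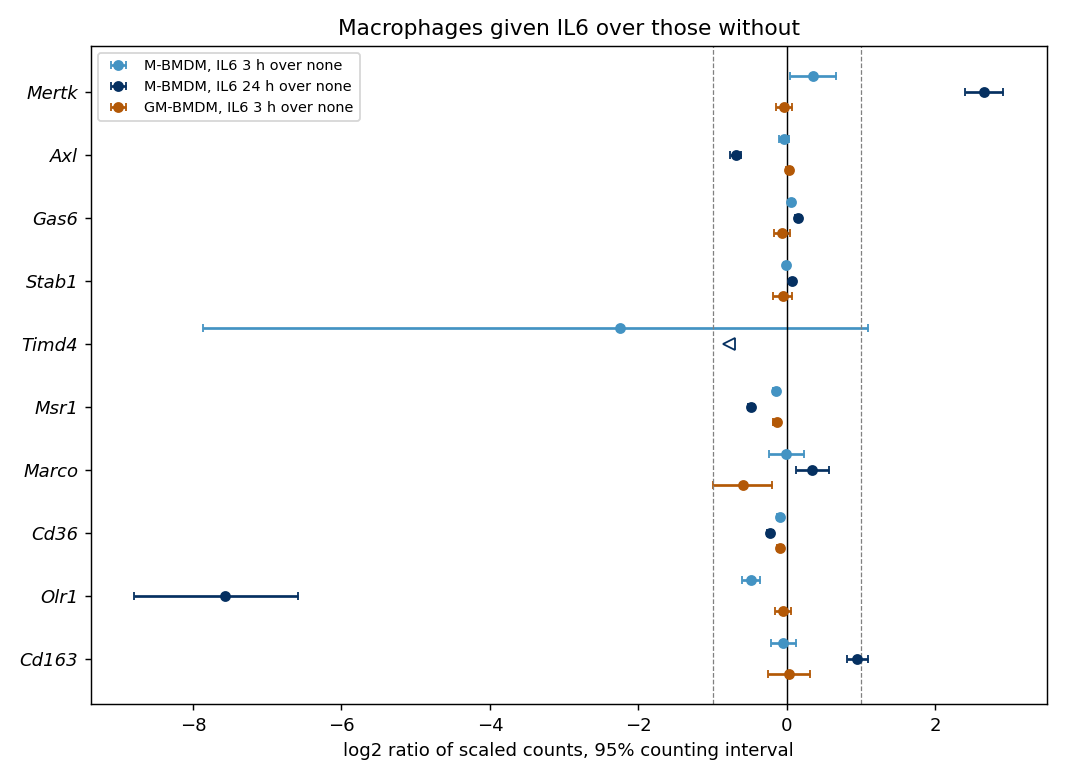
log2 ratio of scaled counts with IL6 over without for each of the 10 genes, for M-BMDM after 3 h and 24 h and for GM-BMDM after 3 h, with the exact 95% counting interval; dashed lines mark a 2-fold difference and the open triangle is a bound computed against 3 counts. The 24 h points of Olr1 (-7.57) and Mertk (2.65) lie outside the dashed lines, and the 3 h points of the 9 members counted lie inside them.

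The genes around the members were described with 7 lists of known roles. Their counts stand against the shares over all genes, which were 10.8% higher and 8.64% lower in GM-BMDM over M-BMDM, 11.5% and 8.93% after 24 h of IL6 in M-BMDM, 20.1% and 23.0% in M-BMDM over BM, and 19.8% and 22.3% in GM-BMDM over BM. Among 20 bridging molecules and other receptors for dead cells, 19 passed the filter, and in GM-BMDM over M-BMDM 5 of the 18 at 5 CPM were higher and 4 were lower. Mfge8, which bridges phosphatidylserine to integrins, had 3383 CPM in GM-BMDM, against 124 CPM in M-BMDM (log2 ratio 4.77), and 12.3 CPM in BM. Of the integrin genes in this list, Itgav was lower, with 58.8 CPM in GM-BMDM, against 356 CPM in M-BMDM. Itgb3 (32.3 CPM, against 22.6 CPM) and Itgb5 (178 CPM, against 201 CPM) differed less, and Itgb3 went the other way. Tyro3, the remaining TAM kinase, had 23.4 CPM in GM-BMDM, against 0.268 CPM in M-BMDM (5 counts; log2 ratio 6.45), and was thus higher in GM-BMDM, as Mertk and Axl were. After 24 h of IL6, 2 of 17 genes of this list were higher and 2 were lower, near the shares over all genes. Pros1, the other TAM ligand, was among the higher ones, with 62.1 CPM after 24 h, against 22.1 CPM in M-BMDM. Thbs1, a bridging protein bound by Cd36, had 6.81 CPM after 24 h, against 716 CPM in M-BMDM (log2 ratio -6.72).

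Relative to BM, 11 of 17 genes of that list were higher and 3 lower in M-BMDM, and 14 of 18 were higher and 1 lower in GM-BMDM. Trem2, a lipid and dead cell receptor, had 472 CPM in GM-BMDM and 602 CPM in M-BMDM, against 4.85 CPM in BM. Among 19 other scavenger receptors, 3 of 10 were higher in GM-BMDM than in M-BMDM and 1 was lower. Clec7a, the beta-glucan receptor, had 1428 CPM in GM-BMDM, against 128 CPM in M-BMDM, and Mrc1, the mannose receptor, had 363 CPM, against 76.8 CPM. After 24 h of IL6, 1 of 11 was higher (Cd5l, 15.2 CPM, against 2.20 CPM in M-BMDM) and 2 were lower, among them Cd14, a receptor for bacterial lipopolysaccharide, with 529.5 CPM, against 1506 CPM in M-BMDM.

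The engulfment machinery had 1 of 19 genes higher and 2 lower in GM-BMDM over M-BMDM, and 3 higher and 2 lower after 24 h of IL6, with the lower ones in GM-BMDM and both counts at 24 h near the shares over all genes. The 3 higher ones were Rubcn, which acts in LC3-associated phagocytosis, and the actin regulators Elmo2 and Dock1, with log2 ratios of 1.39, 1.21 and 1.16. Among genes that attract or restrain phagocytes, 2 of 13 were higher and 5 lower in GM-BMDM over M-BMDM, and 0 of 11 were higher and 6 lower after 24 h. Cx3cr1, the fractalkine receptor, had 5.15 CPM in GM-BMDM, against 388 CPM in M-BMDM, and its ligand Cx3cl1 had 1.99 CPM after 24 h of IL6, against 31.4 CPM in M-BMDM.

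Of 12 lipid handling genes, 5 were higher and 0 lower in GM-BMDM over M-BMDM, and relative to BM 9 were higher and 1 lower in M-BMDM and 10 were higher and 0 lower in GM-BMDM. Abcg1, a cholesterol exporter, had 376 CPM in GM-BMDM, against 16.3 CPM in M-BMDM, and 145 CPM after 24 h of IL6 in M-BMDM. Among the nuclear receptors and other regulators, 3 of 15 were higher and 3 lower in GM-BMDM over M-BMDM, with Maf (log2 ratio -3.00) among the lower ones and Ppard (2.10) and Rxra (1.62) among the higher ones. In the last list, of proteases that shed the receptors and genes that handle their ligands, 3 of 12 were higher and 1 lower in GM-BMDM over M-BMDM. Hp, which encodes the haptoglobin that Cd163 binds, had 74.2 CPM in GM-BMDM, against 9.45 CPM in M-BMDM. Slc40a1, the iron exporter, had 95.7 CPM after 24 h of IL6, against 11.4 CPM in M-BMDM (log2 ratio 3.07). After 24 h of IL6, the lipid list had 1 higher and 1 lower of 12, the regulators 1 higher and 2 lower of 15, and the last list 1 higher and 2 lower of 11. In all 7 lists, 0 genes were counted after 3 h of IL6 in either macrophage type, against 0.362% of all genes in M-BMDM and 0.166% in GM-BMDM. These 3 h counts are near the shares over all genes. So are the 24 h counts of the lipid list, the regulators and the last list, and nothing is read from them.

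Relative to BM, the other scavenger receptors had 7 higher and 3 lower of 13 in M-BMDM and 10 higher and 3 lower of 13 in GM-BMDM. The engulfment machinery had 3 higher and 1 lower of 19 in M-BMDM and 3 higher and 2 lower of 19 in GM-BMDM. Genes that attract or restrain phagocytes had 6 higher and 3 lower of 13 in M-BMDM and 5 higher and 4 lower of 13 in GM-BMDM, the regulators 5 and 1 of 16 and 6 and 3 of 16, and the last list 7 and 3 of 12 and 6 and 3 of 12. In GM-BMDM over M-BMDM, the median log2 ratio was 0.25 for the bridging molecules and receptors, 0.57 for other scavenger receptors, -0.31 for engulfment, -0.50 for attraction and restraint, -0.06 for regulators, 0.61 for lipid handling and -0.23 for the last list, against -0.02 over all genes. After 24 h of IL6 these medians lay between -0.47 and -0.02, except for attraction and restraint at -1.02, against 0.02 over all genes.

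**Figure D5:**
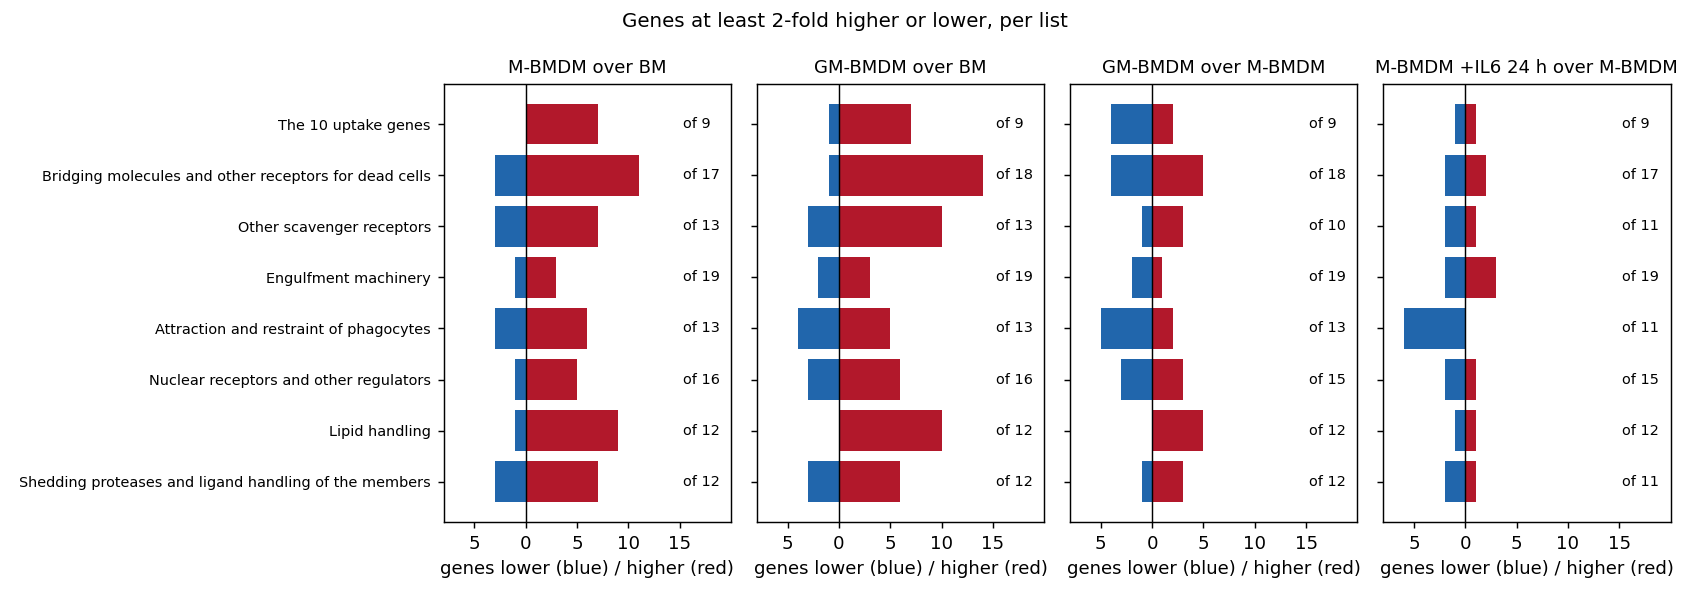
Number of genes at least 2-fold higher (red, to the right) or lower (blue, to the left) in each of 4 comparisons, for the 10 uptake genes and for 7 lists of related genes; the number on the right of each bar is the number of genes with at least 5 scaled CPM. The members had 7 higher and 0 lower of 9 in M-BMDM over BM and 2 higher and 4 lower in GM-BMDM over M-BMDM.

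The members were not alike among themselves. As the root-mean-square distance between log2(CPM + 1) profiles over the 6 libraries, each centred on its mean, the closest pairs were Marco and Cd36 (0.59) and Gas6 and Marco (0.63), and the most distant was Stab1 and Olr1 (3.85). The added 1 CPM narrows the span of Marco, which had 0.617 CPM in BM. Without it, the log2 ratio of M-BMDM over BM was 4.58 for Marco, against 2.95 for Cd36 and 3.51 for Gas6. The nearness of Marco to these and to the genes named for it below rests in part on that addition. Mertk and Gas6 stood 2.29 apart and Mertk and Axl 1.04. Across 10007 genes, the profile nearest to Mertk was that of Zranb3 (0.14), followed by Sh2d1b1 (0.26) and Phlda3 (0.36). Zranb3 had 84.5 and 79.1 CPM in GM-BMDM with and without IL6, 11.6, 11.5 and 67.2 CPM along the M-BMDM series and 15.4 CPM in BM. Nearest to Axl were Vwf, Ece1 and Layn, with Ece1 at 0.13 and Layn at 0.14.

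Nearest to Gas6 was C1qc (0.18), followed by Rapgef5 (0.19) and Maf (0.21). Stab1 had no near neighbour, with Nes, Arhgap22 and Pcdh7 at 0.54, 0.61 and 0.66. Olr1 was nearest to Hist1h1c (0.41), Thbs1 (0.43) and Il1rn (0.70), all of which were also low after 24 h of IL6, with 9.63, 6.81 and 9.22 CPM, against 467, 716 and 143 CPM in M-BMDM. The added 1 CPM narrows the span of Olr1, which had 0.332 CPM after 24 h, so its nearness to these genes rests in part on that addition. Without it, the log2 ratio of the 24 h library over M-BMDM was -7.57 for Olr1, against -6.72 for Thbs1. Msr1 was nearest to Dpep2, Pls3 and Igf1, Marco to Ifi207, Cdk20 and Abcb1b, Cd36 to Grn and Cmtm3 among others, and Cd163 to Gbp9, Srgap3 and Fam129a. Timd4 was near to Arid5a and Nt5c3, a likeness set by the added 1 CPM, since its own levels in the cultures were near 0. These distances describe 6 libraries of a few conditions, several of them nearly alike.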

How the data were processed

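Total RNA was sequenced in 6 libraries, 1 per group. The authors deposited a table of estimated counts per gene, made with HISAT2, StringTie and DESeq2 among the tools and GRCm38 as the build that the submitters' processing notes list. Of the values above 0, 24.7% to 27.7% per library were not whole numbers. Settings and strand use are not stated. Estimated counts were rounded, and the 742 rows without a gene name (0.240% to 0.522% of counts) were left out. The named rows matched GENCODE M21 identifiers. Scaling used TMM from edgeR 4.0.16 in R 4.3.3, so CPM is relative to effective library size. For each pair of libraries the ratio was given with an exact 95% Clopper-Pearson interval. Reads copied by PCR and carrying no molecular identifier are no independent molecules, so intervals and limits cover counting error only. Where a library had no count, its limit was set at 3 counts. The calls of single genes and the intervals were checked on counts simulated with counting error alone, so a spread between cultures was not covered. With 1 library per group no test between groups was made.

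All 10 members were named in every comparison. From each list, up to 4 counted genes with at least 10 CPM were named per comparison by size of the log2 ratio, and per member the 3 nearest profiles among genes with at least 10 CPM, without predicted names. A few genes that this rule names are not reported here. The members, lists and motifs were chosen with earlier results of these data known. Alternatives were upper-quartile factors, total counts, DESeq2 1.42.0 size factors, other fold, level and filter limits, no interval, unrounded values, unnamed rows kept, and other gene lengths.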

Additional observations from a re-analysis of the deposited data

How the results depend on the processing

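Over 12 alternatives in each of 8 comparisons, 92 of 96 counts of members stayed within 1.5 times the count reported. The 4 others came from the fold limit. In GM-BMDM over M-BMDM, 3 members were counted at 3-fold (Mertk, Gas6 and Stab1) in place of 6. At 1.5-fold, 4 members were counted (Mertk, Axl, Olr1 and Cd163) in place of 2 in the 24 h library over M-BMDM, and 4 in place of 2 over the 3 h library. At 1.5-fold, 1 member (Marco) was counted in place of 0 in GM-BMDM with IL6 for 3 h over GM-BMDM. The shares over all genes were computed with the main settings only. The member counts under the alternatives therefore have no share beside them and cannot be set against all genes. Of 924 log2 ratios of members, 58 moved outside their counting interval, 39 of them with total counts as the scale, and 0 called ratios changed sign. Of the TPM values under the other gene lengths, 91 moved outside their counting interval and 29 stayed within it.

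Total counts shifted every log2 ratio by -0.17 in M-BMDM over BM, -0.33 in GM-BMDM over BM, -0.16 in GM-BMDM over M-BMDM and 0.14 in the 24 h library over M-BMDM. With a level of 1 CPM, Timd4 was also counted as lower in both cultures than in BM. It passed the filter through BM alone, so lower was the only direction open to it, and nothing is drawn from that count. With a level of 10 CPM, Marco was no longer counted in GM-BMDM over BM. No paired analysis was possible because each group had 1 library and the labels carry no replicate numbers shared between groups. Depth limits Timd4 in the cultures, Marco in BM and Olr1 after 24 h of IL6, which rest on 15 counts or fewer.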
